A study of Mus musculus with 9 samples.

Results

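Most nuclear genes for the subunits of respiratory complex I had a higher signal in the heart of the 10-week-old mouse than in that of the newborn. They were the genes whose platform symbol reads Nduf followed by a, b, c, s or v and a number, or Ndufab1, and that have a probe set carrying no other symbol. Of the 19938 genes that were tested, 36 met this rule, and 7 Ndufaf genes, which encode assembly factors, were kept as a group of their own, so that 43 genes were followed. Where a gene had several such probe sets, which 5 of the 43 had, the one with the highest mean over all arrays was used. 2 of the 36 carry the name without being counted among the subunits today: Ndufa4, now regarded as a subunit of complex IV, and its paralog Ndufa4l2. The remaining 34 are 6 core subunits and 28 accessory ones. Ndufb1 was not analysed here, and Ndufb4 was left out because its 2 probe sets also name Ndufb4b.

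The hearts came from C57BL/6 mice, an inbred laboratory strain, at 3 ages: 24 hours, 7 days and 10 weeks after birth. No agent or altered gene is named for any age, and age is the one difference that the labels give. Total RNA of heart muscle was hybridised to 3 Affymetrix Mouse Gene 1.0 ST arrays per age, and each probe set gave 1 log2 signal per array. Nothing in the labels says that the replicates of an age were separate animals, and a p-value here therefore covers the spread between these samples, which may be technical.

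Complex I, the NADH:ubiquinone oxidoreductase, takes electrons from NADH into the respiratory chain and pumps protons across the inner mitochondrial membrane. Its peripheral arm holds the N module, where NADH is oxidised, and the Q module, where ubiquinone is reduced, and its membrane arm has a proximal and a distal part. The core subunits carry the chemistry and are shared with bacteria, the accessory ones surround them, and the assembly factors help to build the complex without staying in it. The heart depends on this chain for most of its ATP, and after birth its muscle turns from glycolysis towards the oxidation of fatty acids.

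All 9 arrays carried heart muscle RNA by their markers: the mean of 9 cardiomyocyte genes lay between 12.23 and 12.32 on each. Arrays of an age were not alike in other respects. The mean of 4 liver genes ran from 4.74 to 6.38 at 7 days, against 5.11 to 5.36 at 24 hours and 4.48 to 4.82 at 10 weeks. At 7 days the brown fat gene Ucp1 stood at 4.30 on replicate 1, 11.23 on replicate 2 and 9.27 on replicate 3, against 3.92 to 4.27 at the other ages, and the mean of 7 brown fat genes ran from 4.97 to 7.76 at 7 days. Eif2s3y of the Y chromosome gave 6.06 to 7.70 at the younger ages and 2.87 to 3.30 at 10 weeks, and Xist, made from an inactive X chromosome, 8.26 to 9.56 on the 9 arrays. Every younger array thus gave both signals, and whether it held RNA of several animals is not stated in the labels and was not tested. The sex make-up by these genes differed between the 10-week and the younger arrays, and in every comparison with 10 weeks it cannot be told apart from age. The mean of 7 fibroblast genes ran from 9.22 to 9.43, from 9.88 to 10.20 and from 8.72 to 8.92 at the 3 ages in order, and that of 5 macrophage genes from 6.59 to 6.71, from 7.30 to 7.42 and from 8.10 to 8.40. That of 5 endothelial genes ran from 9.44 to 9.49, from 9.58 to 9.65 and from 9.19 to 9.37, and that of the 2 erythroid genes measured from 7.09 to 7.73, from 7.86 to 8.29 and from 4.96 to 6.48. Between 24 hours and 10 weeks 19.5% of all tested genes were called higher and 20.6% lower. Of the 9 cardiomyocyte genes 4 were called lower and 2 higher (median -0.07). Of the 5 endothelial genes 3 were called lower and 1 higher (median -0.39), and both erythroid genes were called lower (median -1.98). Of the 7 fibroblast genes 3 were called higher and 3 lower (median -0.0025), and all 5 macrophage genes were called higher (median 1.23). The part of these differences in the values of the complex I genes was not tested, except that calls were repeated without 7-day replicates 2 and 3. In whole tissue, fewer cells of a type and less RNA per cell cannot be told apart.

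From 24 hours to 10 weeks 30 of the 36 Nduf genes rose and 0 fell at an adjusted p under 0.05 (limma over all 19938 genes), where 19.5% of all tested genes rose and 20.6% fell, 40.1% in all. Of the 34 subunits 28 rose, with a median log2 difference of 0.34 against 0.04 over all genes, and of the 7 Ndufaf genes 4 rose, with a median of 0.29. Most of the movement was small: the median of the subunits is a 1.26-fold change, and 1 gene, Ndufb3, passed 2-fold. With any 1 of the 9 arrays left out, 24 of these 30 calls were kept, and the 6 that were lost at times are named below with the arrays. The arrays of these ages did not overlap, with the older higher, for 30 of the 36 genes, against 24.6% of all genes, and with the older lower for 1, Ndufc2, against 23.6%. All 43 genes had a highest age mean above the median signal of the tested genes. Among the 9969 tested genes whose mean over all arrays was above that median, 25.48% rose and 35.49% fell, with a median of -0.06.

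The steps differed in how many genes passed the test. In the first week 9 of the 36 Nduf genes rose and 0 fell, against 5.27% and 4.81% of all genes, and the median of the 34 subunits was 0.17. Between 7 days and 10 weeks 22 of the 36 rose and 0 fell, against 17.0% and 18.9% of all genes, with a median of 0.23. The later step was longer, and 35.9% of all tested genes were called in it in either direction, against 10.1% in the first week. The arrays of 24 hours and 7 days did not overlap for 14 genes that were higher and 3 that were lower at 7 days (12.6% and 14.5% of all genes), and those of 7 days and 10 weeks for 22 that were higher and 0 that were lower at 10 weeks (22.8% and 21.5%). The direct test of the later step minus the first passed for 5 subunits above 0 and for Ndufa4l2 below 0, against 8.12% and 10.7% of all genes. The first-week count depended on the kind of rescaling and on single arrays. With each array centred on its median 4 of the 36 rose and 1, Ndufs1, fell, while after quantile normalization 9 rose and 0 fell. The count that rose was 3 without 24-hour replicate 1, without 24-hour replicate 2, without 7-day replicate 1 or without 7-day replicate 3. The later count was 14 without 7-day replicate 2 and 13 without 10-week replicate 1, and 13 of its 22 calls held with any 1 array left out. Without 7-day replicates 2 and 3 together, the arrays with Ucp1, 4 genes rose in the first week, 7 in the later step and 29 over the whole interval. The first-week calls that held so were those of Ndufa1, Ndufa4, Ndufa4l2 and Ndufa5, and the later ones those of Ndufa5, Ndufa10, Ndufa12, Ndufb3, Ndufs3, Ndufs7 and Ndufv1. This setting leaves 1 array at 7 days, so a lost call does not show a smaller difference. The first-week differences that lost their call were all larger so than on all arrays. They were 0.38 against 0.34 for Ndufa11, 0.44 against 0.34 for Ndufa2 and 0.33 against 0.25 for Ndufb11. For Ndufb3 they were 0.47 against 0.36 and for Ndufs4 0.40 against 0.29. Of the later differences that lost their call, those of Ndufa6 and Ndufb10 were larger so and the others smaller. The whole difference of Ndufa10, also no longer called, stayed at 0.16.

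**Figure D1:**
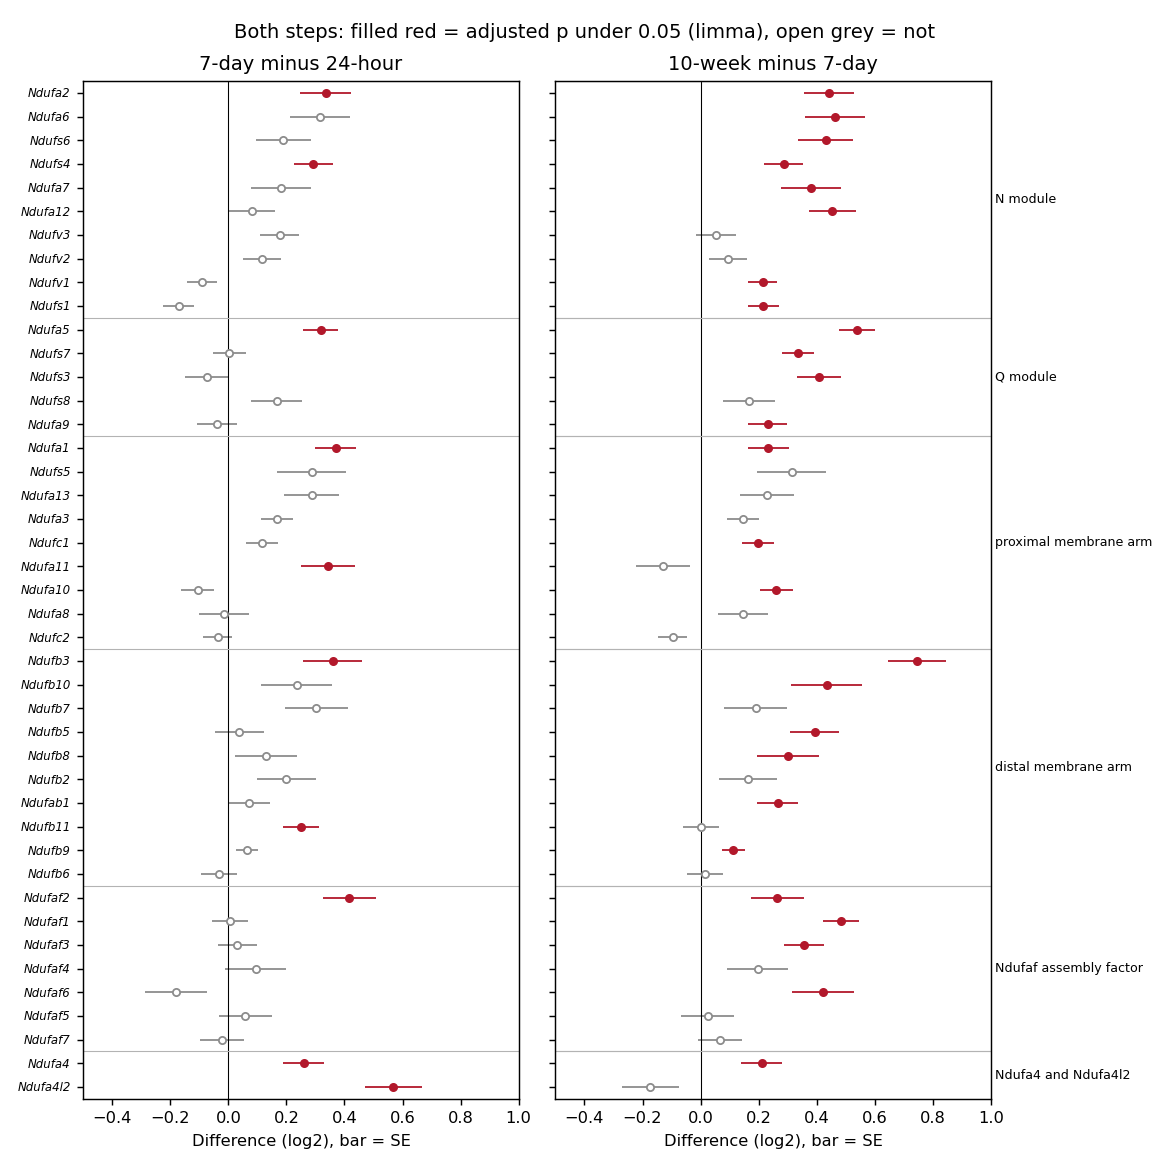
Log2 difference of each of the 43 genes in the first week (24 hours to 7 days) and in the later step (7 days to 10 weeks), with its standard error; filled red points passed the test at an adjusted p under 0.05. In the first week 9 of the 36 Nduf genes and 1 of the 7 Ndufaf genes were called higher, in the later step 22 and 4, and 0 were called lower in either.

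Promoter sequences were set beside these values because the genes moved in one direction. Nuclear respiratory factor 1 (NRF1) is known to bind promoters of respiratory chain genes, and a short form of its site, the letters GCGCA, then any base, then GCGC, were searched on both strands in windows from 250 bases before to 50 after each start (RefSeq, GRCm38.p6). A window was held for 38 of the 43 genes, among them 31 of the 34 subunits. The letters stood in 6 of these 31 (19.35%), in 2 of 6 Ndufaf windows (33.33%), in 7.87% of the 15563 tested genes with a window and in 4.60% of all 32851 windows. The 6 subunit genes were Ndufa5, Ndufa6, Ndufa8, Ndufa11, Ndufs5 and Ndufs6. The 120 bases before the start are shown for 5 of them, 5′ to 3′ along the gene with the match in capitals. They are also shown for Ndufb3, which rose most, and Ndufc2, which did not rise, where these letters are absent from the window. Ndufa5 has 2 starts, and the bases before the upstream one are shown, where the match begins at -26. From its other start the match begins at -190, outside the 120 bases.

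Ndufa5, chr6:24527691-24527810, minus strand: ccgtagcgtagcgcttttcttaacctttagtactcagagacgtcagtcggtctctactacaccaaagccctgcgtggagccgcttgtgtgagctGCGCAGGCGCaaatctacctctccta
Ndufs6, chr13:73328483-73328602, minus strand: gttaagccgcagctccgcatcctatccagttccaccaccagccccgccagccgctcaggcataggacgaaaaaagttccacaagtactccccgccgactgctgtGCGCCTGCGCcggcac
Ndufs5, chr4:123718187-123718306, minus strand: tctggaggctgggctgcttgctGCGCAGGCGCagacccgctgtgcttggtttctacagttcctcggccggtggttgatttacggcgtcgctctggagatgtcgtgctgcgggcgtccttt
Ndufa11, chr17:56717642-56717761, plus strand: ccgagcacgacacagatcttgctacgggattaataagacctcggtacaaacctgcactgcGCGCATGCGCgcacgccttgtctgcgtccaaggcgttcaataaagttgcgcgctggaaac
Ndufa8, chr2:36049339-36049458, minus strand: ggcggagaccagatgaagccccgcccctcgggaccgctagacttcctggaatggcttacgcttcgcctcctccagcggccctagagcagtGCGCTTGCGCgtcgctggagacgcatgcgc
Ndufb3, chr1:58586277-58586396, plus strand: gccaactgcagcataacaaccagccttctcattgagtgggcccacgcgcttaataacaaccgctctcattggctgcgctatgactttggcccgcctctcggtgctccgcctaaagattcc
Ndufc2, chr7:97399883-97400002, plus strand: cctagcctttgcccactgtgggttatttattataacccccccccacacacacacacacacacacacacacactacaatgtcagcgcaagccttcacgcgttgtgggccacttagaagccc

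The 10-week minus 24-hour difference of the 6 genes with the letters had a median of 0.61 and ran from 0.13 for Ndufa8 to 0.86 for Ndufa5. That of the 25 without them had a median of 0.34 and ran from -0.13 for Ndufc2 to 1.10 for Ndufb3, so the ranges overlapped. A match says only that the letters are there, and these motifs were chosen with the values known. Of the other letters searched, a YY1 form (AANATGGCG) stood in 7 of the 31 windows (22.58%) against 3.87% of the tested genes, and 5 of the 7 matches lay after the start. An ETS form (CCGGAAG) stood in 4 windows (12.9% against 13.62%), an Sp1 form (GGGCGGG) in 11 (35.48% against 39.79%) and an estrogen-related receptor form (TNAAGGTCA) in 0 against 1.16%.

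**Figure D2:**
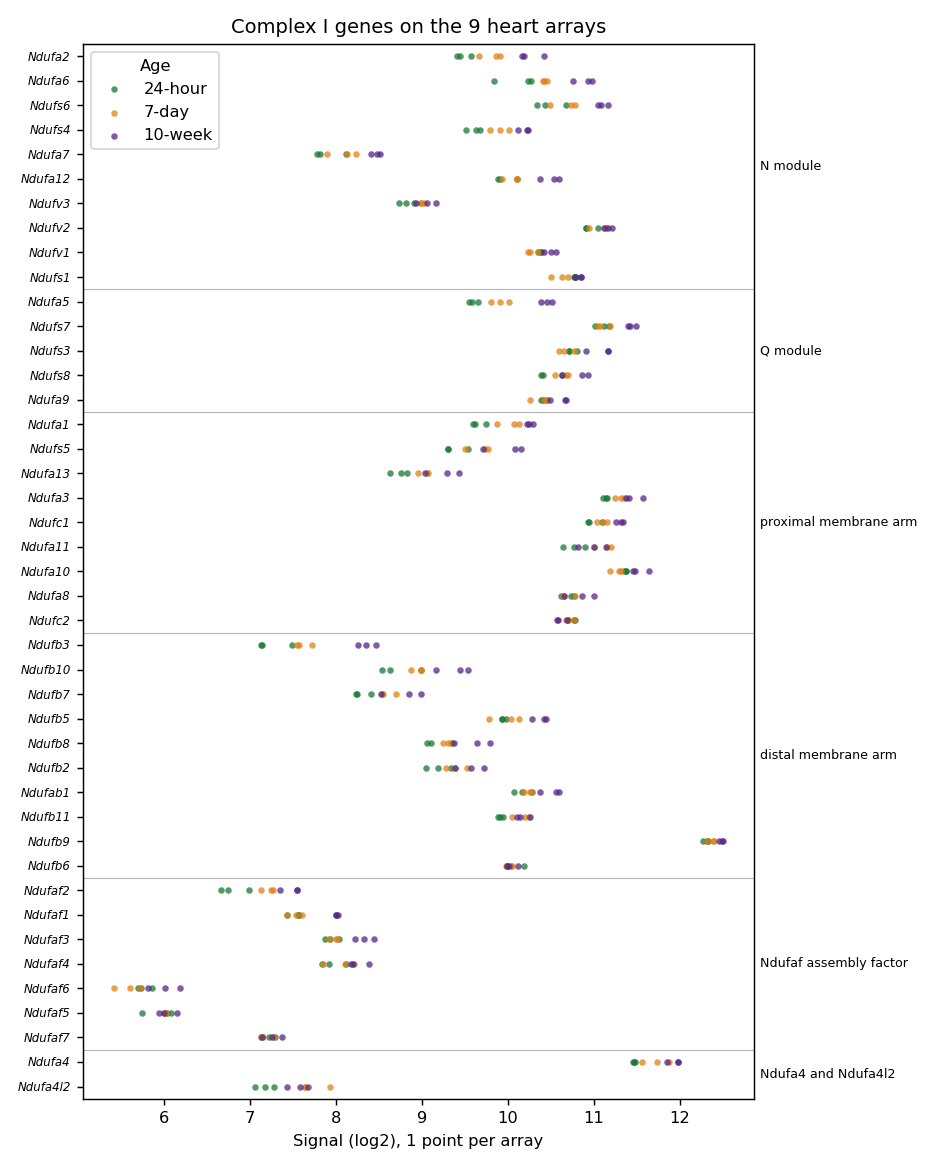
Log2 signal of each of the 43 genes on each of the 9 arrays, with 1 row per gene, grouped by place in the complex, and points coloured by age. The 10-week points lie above all 24-hour points for 30 of the 36 Nduf genes and below them for Ndufc2; signals of different probe sets are not comparable as transcript levels.

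The N module, which oxidises NADH, was measured by 10 genes: 8 rose over the whole interval (19.5% of all genes did; median 0.55), 2 rose in the first week (5.27%) and 8 in the later step (17.0%). Ndufa2 (probe set 10458386), a small accessory subunit with a thioredoxin-like fold, measured 9.44, 9.41 and 9.57 at 24 hours, 9.91, 9.66 and 9.86 at 7 days, and 10.42, 10.18 and 10.16 at 10 weeks. Each age lay above the one before it without overlap, and the whole rise was 0.78 ± 0.09 (SE; 1.72-fold, adjusted p = 3.97e-05). Ndufa6 (probe set 10430846), an LYR-motif protein, measured 9.84, 10.23 and 10.26 at 24 hours, 10.41, 10.42 and 10.46 at 7 days, and 10.93, 10.98 and 10.76 at 10 weeks. Its ages did not overlap either, although the 24-hour arrays were widely spread, and it rose by 0.78 ± 0.10 (1.71-fold, adjusted p = 0.000138). Its first-week difference of 0.32 did not pass (adjusted p = 0.0913). Without 7-day replicates 2 and 3 the later steps of Ndufa2 and Ndufa6 measured 0.34 and 0.48 and no longer passed (adjusted p = 0.0809 and 0.0861).

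Ndufs4 and Ndufs6, subunits added late in assembly, both rose. Ndufs4 (probe set 10412251) measured 9.52, 9.63 and 9.68 at 24 hours, 10.01, 9.79 and 9.91 at 7 days, and 10.23, 10.23 and 10.12 at 10 weeks. The ages were separate in order, with 0.29 gained in the first week (adjusted p = 0.0215) and 0.29 after it (adjusted p = 0.00677), a total of 1.49-fold. The first-week call of Ndufs4 was lost without any 1 of 24-hour replicates 1 and 2 or 7-day replicates 1 and 3, and that of Ndufa2 (0.34, adjusted p = 0.0367) without these or 24-hour replicate 3 (highest adjusted p 0.0894 and 0.139). Without 7-day replicates 2 and 3 the steps of Ndufs4 measured 0.40 and 0.18, and neither passed (adjusted p = 0.0653 and 0.199). Ndufs6 (probe set 10410508), which holds a zinc ion, measured 10.34, 10.44 and 10.67 at 24 hours, 10.79, 10.49 and 10.73 at 7 days, and 11.17, 11.05 and 11.09 at 10 weeks. Here 24 hours and 7 days overlapped, and the gene rose in the later step by 0.43 ± 0.09 (adjusted p = 0.00448) and over the whole interval by 1.54-fold; without 7-day replicates 2 and 3 the later step was 0.32 (adjusted p = 0.116). Ndufa12, the subunit that takes the place of the assembly factor Ndufaf2, went from 9.97 ± 0.12 to 10.05 ± 0.10 and 10.50 ± 0.11 (SD, n = 3), and its later step was 0.45 (adjusted p = 0.00117). Ndufa7 rose by 0.56 over the whole interval (adjusted p = 0.00124), 0.38 of it in the later step (0.24 without 7-day replicates 2 and 3, adjusted p = 0.275).

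The N module also holds the subunits that bind NADH and the first redox centres. Ndufv1 (probe set 10464572), which binds NADH and flavin, measured 10.35, 10.38 and 10.38 at 24 hours, 10.24, 10.25 and 10.35 at 7 days, and 10.56, 10.42 and 10.50 at 10 weeks. The 7-day arrays lay below all those of the other ages, and the later rise of 0.21 ± 0.05 passed (adjusted p = 0.00783), while the whole difference of 0.12 did not (adjusted p = 0.088). Ndufs1 (probe set 10355084), the largest subunit, with several iron-sulfur clusters, measured 10.78, 10.77 and 10.80 at 24 hours, 10.63, 10.50 and 10.69 at 7 days, and 10.85, 10.78 and 10.85 at 10 weeks. All 7-day arrays were below all 24-hour ones, by 1.13-fold on the means (difference -0.17 ± 0.05, adjusted p = 0.078), and 24 hours and 10 weeks overlapped. The first-week difference of Ndufs1 was -0.20 with each array centred on its median (adjusted p = 0.0431) and passed also among bright genes alone (adjusted p = 0.0450). Ndufv2, which carries an iron-sulfur cluster, and Ndufv3, an accessory subunit, rose by 0.21 and 0.23 (adjusted p = 0.0257 and 0.0203). Both calls were lost without 24-hour replicate 1, 24-hour replicate 2 or 10-week replicate 1, and that of Ndufv2 without 10-week replicate 2 too (highest adjusted p 0.0936 and 0.0823).

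In the Q module, which hands electrons to ubiquinone, all 5 measured genes rose over the whole interval (19.5% of all genes did; median 0.34), 1 in the first week (5.27%) and 4 in the later step (17.0%). Ndufa5 (probe set 10543442), an accessory subunit, measured 9.58, 9.55 and 9.65 at 24 hours, 10.01, 9.81 and 9.91 at 7 days, and 10.51, 10.39 and 10.45 at 10 weeks. The ages were separate, and both steps passed, at 0.32 ± 0.06 (adjusted p = 0.00891) and 0.54 ± 0.06 (adjusted p = 5.79e-05), giving 1.81-fold in all. Both calls of Ndufa5 held with any 1 of the 9 arrays left out (highest adjusted p 0.0481 and 0.000528). Ndufs7 (probe set 10364744), which holds the last iron-sulfur cluster before ubiquinone, measured 11.01, 11.12 and 11.18 at 24 hours, 11.05, 11.08 and 11.19 at 7 days, and 11.43, 11.50 and 11.40 at 10 weeks. It was level over the first week, at 0.00 ± 0.06, and every 10-week array then lay above all the younger ones (difference 0.34, 1.26-fold, adjusted p = 0.000869). Ndufs3 (probe set 10386171), a core subunit, measured 10.71, 10.71 and 10.81 at 24 hours, 10.65, 10.60 and 10.77 at 7 days, and 11.16, 11.17 and 10.91 at 10 weeks. Again the young ages overlapped and 10 weeks was higher, by 0.41 ± 0.08 from 7 days (adjusted p = 0.0015).

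Ndufs8, another iron-sulfur subunit, measured 10.38, 10.41 and 10.63 at 24 hours, 10.67, 10.55 and 10.69 at 7 days, and 10.87, 10.93 and 10.63 at 10 weeks. It rose by 0.33 over the whole interval (adjusted p = 0.0119), yet 10-week replicate 3 did not clear 24-hour replicate 3. That call was lost without 24-hour replicate 1, 24-hour replicate 2 or 10-week replicate 2 (highest adjusted p 0.0533). Ndufa9, which binds a nucleotide cofactor, went from 10.41 ± 0.03 to 10.38 ± 0.11 and 10.61 ± 0.11 (SD, n = 3). Its whole difference of 0.19 passed (adjusted p = 0.0434), but not without any 1 of 24-hour replicates 1 to 3, 7-day replicate 3 or 10-week replicates 1 and 2 (highest adjusted p 0.138).

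The 6 core subunits measured, which are 3 N module and 3 Q module genes, had 0 of 6 called higher in the first week, where 7 of the 28 accessory ones and 5.27% of all genes were, with medians of -0.04 for the core and 0.19 for the accessory genes. At that background share a count of 0 among 6 genes is not a result about the core subunits. In the later step 4 of the 6 core genes and 17 of the 28 accessory genes rose, with medians of 0.22 and 0.25, and over the whole interval 4 of 6 and 24 of 28, with medians of 0.27 and 0.43 (17.0% and 19.5% of all genes rose). Whether the groups differ was not tested. The later step was larger than the first for Ndufs3 (by 0.48 ± 0.13, adjusted p = 0.0262), Ndufs1 (0.39, 0.0151), Ndufs7 (0.33, 0.039) and Ndufv1 (0.31, 0.0372), which are 4 of the 6 core genes. Ndufa10 of the proximal arm was the fifth (0.37, adjusted p = 0.0232). Each of these 5 calls was lost without 7-day replicate 2, and each but that of Ndufs1 without 7-day replicate 1 (highest adjusted p over the arrays left out 0.0669 to 0.145). Other single arrays ended some of them too: 24-hour replicate 1 for Ndufv1, 24-hour replicate 2 for Ndufa10, Ndufs7 and Ndufv1, 24-hour replicate 3 and 10-week replicate 1 for Ndufs3, Ndufs7 and Ndufv1, and 10-week replicate 2 for Ndufs3 and Ndufs7. Without 7-day replicates 2 and 3 the values were 0.34 to 0.53 and none of the 5 passed (adjusted p = 0.0977 to 0.219).

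**Figure D3:**
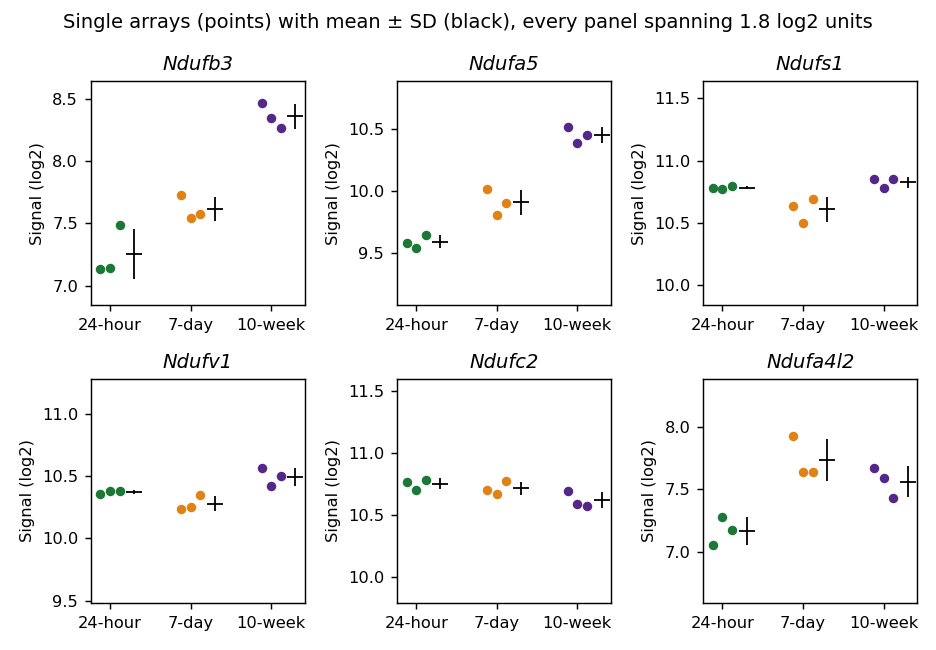
Log2 signal of Ndufb3, Ndufa5, Ndufs1, Ndufv1, Ndufc2 and Ndufa4l2 on each array by age, with the mean and SD of the 3 arrays. Ndufb3 and Ndufa5 rise at both steps, Ndufs1 and Ndufv1 have their lowest arrays at 7 days, Ndufc2 has its 10-week arrays below its 24-hour ones, and Ndufa4l2 is highest at 7 days.

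The proximal membrane arm, which joins the peripheral arm to the membrane, held both genes with a rise and genes without one: 6 of 9 rose over the whole interval (19.5% of all genes did; median 0.31), 2 in the first week (5.27%) and 3 in the later step (17.0%). Ndufa1 (probe set 10604100), a small X-linked subunit needed for assembly, measured 9.62, 9.59 and 9.74 at 24 hours, 10.13, 9.87 and 10.07 at 7 days, and 10.30, 10.22 and 10.25 at 10 weeks. The ages were separate and the rise of 0.60 ± 0.07 (1.52-fold, adjusted p = 5.18e-05) began in the first week, at 0.37 (adjusted p = 0.00797). The first-week call of Ndufa1 held with any 1 array left out (highest adjusted p 0.0437). Its later step of 0.23 (adjusted p = 0.0244) was lost without 7-day replicate 2 or 10-week replicate 1 (highest adjusted p 0.0809) and measured 0.13 without 7-day replicates 2 and 3 (adjusted p = 0.338). Ndufs5, an intermembrane-space subunit with disulfide bonds, rose by 0.60 (adjusted p = 0.00207), and neither step passed alone. Ndufa13, also known as GRIM-19, rose by 0.52 (adjusted p = 0.00126), Ndufa3 by 0.31 (0.00104) and Ndufc1 by 0.31 (0.00105). Ndufa10, a subunit with a nucleoside kinase fold, measured 11.37 ± 0.01, 11.26 ± 0.07 and 11.52 ± 0.10 (SD, n = 3), and its later step of 0.26 passed (adjusted p = 0.00384). Its whole difference of 0.16 passed narrowly (adjusted p = 0.0485) and held only without 7-day replicate 1 or 10-week replicate 2 when arrays were left out in turn (highest adjusted p 0.125).

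Ndufa11 (probe set 10434664), a membrane subunit at the contact with complex III in supercomplexes, measured 10.65, 10.77 and 10.90 at 24 hours, 11.15, 11.00 and 11.20 at 7 days, and 11.00, 11.14 and 10.81 at 10 weeks. Its 7-day arrays lay above those of 24 hours, and 10 weeks overlapped both younger ages. The first-week rise of 0.34 ± 0.09 passed (adjusted p = 0.0424), but not without any 1 of 24-hour replicates 1 and 2, 7-day replicates 1 and 3 or 10-week replicate 1 (highest adjusted p 0.163), and the later step measured -0.13 (adjusted p = 0.313). Ndufc2 (probe set 10555055), a small membrane subunit, measured 10.77, 10.70 and 10.78 at 24 hours, 10.70, 10.67 and 10.77 at 7 days, and 10.69, 10.59 and 10.58 at 10 weeks. All 10-week arrays lay below all 24-hour ones, a difference of -0.13 ± 0.05 that did not pass (adjusted p = 0.0585). Under other settings Ndufc2 did pass as lower: after quantile normalization (-0.14, adjusted p = 0.0459), among bright genes alone (adjusted p = 0.0407) and without 10-week replicate 1 (-0.17, adjusted p = 0.0295). Ndufa8, an intermembrane-space subunit, measured 10.71 ± 0.08, 10.69 ± 0.08 and 10.84 ± 0.18 (SD, n = 3) and was called in no comparison.

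In the distal membrane arm, the far end of the proton-pumping part, 9 of 10 genes rose over the whole interval (19.5% of all genes did; median 0.40), 2 in the first week (5.27%) and 6 in the later step (17.0%). Ndufb3 (probe set 10346544), a small membrane subunit, measured 7.13, 7.14 and 7.49 at 24 hours, 7.73, 7.54 and 7.57 at 7 days, and 8.47, 8.35 and 8.26 at 10 weeks. The ages were separate, and the gene went from 7.26 ± 0.20 to 7.61 ± 0.10 and 8.36 ± 0.10 (SD, n = 3). Its rise of 1.10 ± 0.10 (2.15-fold, adjusted p = 8.52e-06) was the largest of the 43 genes, and 0.75 of it came after 7 days (adjusted p = 0.000189). The first-week part, 0.36 (adjusted p = 0.0492), was lost without any 1 array other than 24-hour replicate 3 (highest adjusted p 0.185). Ndufb10 measured 8.53, 8.63 and 8.99 at 24 hours, 8.88, 8.99 and 8.99 at 7 days, and 9.45, 9.54 and 9.17 at 10 weeks. It rose by 0.67 ± 0.12 (1.59-fold, adjusted p = 0.0012), with 24-hour replicate 3 level with the 7-day arrays.

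Ndufb7, an intermembrane-space subunit, rose by 0.49 (adjusted p = 0.00399), Ndufb5 by 0.43 (0.00183) and Ndufb8 by 0.43 (0.00818). The later step of Ndufb5 was 0.39 (adjusted p = 0.0037) and 0.25 without 7-day replicates 2 and 3 (0.0691). Ndufab1, the mitochondrial acyl carrier protein that also serves fatty acid synthesis, went from 10.17 ± 0.10 to 10.51 ± 0.12 (SD, n = 3; difference 0.34, adjusted p = 0.0032). Ndufb2 rose by 0.36 (adjusted p = 0.0147), a call lost without 24-hour replicate 2 or 10-week replicate 1 (highest adjusted p 0.0659). Ndufb11, an X-linked subunit, measured 9.89, 9.91 and 9.94 at 24 hours, 10.25, 10.05 and 10.20 at 7 days, and 10.26, 10.14 and 10.10 at 10 weeks. It gained 0.25 in the first week and 0.00 after it, so that 7 days and 10 weeks overlapped (whole difference 0.25, adjusted p = 0.00801). The first-week call of Ndufb11 (adjusted p = 0.0294) was lost without any 1 of 24-hour replicates 1 to 3 or 7-day replicates 1 and 3 (highest adjusted p 0.115). Ndufb9, an LYR-motif subunit, rose by 0.18 ± 0.04 (adjusted p = 0.00403), the smallest difference called higher among the distal genes. Ndufb6 (probe set 10512093) measured 9.99, 9.99 and 10.18 at 24 hours, 10.04, 9.98 and 10.04 at 7 days, and 10.12, 10.01 and 9.99 at 10 weeks, with every age overlapping the others and a whole difference of -0.02 ± 0.06 (adjusted p = 0.864).

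The 6 genes that rose at both steps were Ndufa1, Ndufa2, Ndufa4, Ndufa5, Ndufb3 and Ndufs4. Another 16 were called in the later step alone, 3 (Ndufa11, Ndufa4l2 and Ndufb11) in the first week alone, and 11 in neither. Over all tested genes 5.27% were called higher in the first week and 17.0% in the later step. More calls in the later step are thus not particular to these genes. The shares of all genes called in both steps or in 1 alone were not counted. A call in one step alone does not show that the steps differ, and the direct test passed for the 6 genes named above. Across the 34 subunits the 10-week minus 24-hour difference was smaller where the mean signal was higher (Pearson's r = -0.55, Spearman's rho = -0.54). This is a description over probe sets that share the same 9 arrays, and a bright probe set is not a more abundant transcript. The 17 brighter probe sets had a median difference of 0.21 and the 17 dimmer ones 0.54.

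Both genes with the name alone rose over the whole interval. Ndufa4 (probe set 10543134) measured 11.47, 11.45 and 11.47 at 24 hours, 11.88, 11.56 and 11.73 at 7 days, and 11.97, 11.85 and 11.98 at 10 weeks. Its 24-hour arrays lay below all the rest, 7 days and 10 weeks overlapped, and it rose by 0.47 ± 0.07 (adjusted p = 0.000347). Each of its single steps was lost without 7 of the 9 arrays in turn, the first kept only without 7-day replicate 2 or 10-week replicate 2 and the later without 7-day replicate 1 or 10-week replicate 2 (highest adjusted p 0.141 and 0.132). Without 7-day replicates 2 and 3 the first step of Ndufa4 was 0.41 (adjusted p = 0.0248) and the later 0.06 (0.627). Ndufa4l2 (probe set 10366951), known as a gene induced in low oxygen, measured 7.05, 7.28 and 7.17 at 24 hours, 7.93, 7.64 and 7.64 at 7 days, and 7.67, 7.59 and 7.43 at 10 weeks. It was the only one of the 36 whose later step was called smaller than its first, by -0.74 ± 0.17 (adjusted p = 0.0117). It rose by 0.57 in the first week (adjusted p = 0.00471) and changed by -0.17 after it (adjusted p = 0.201), when 7 days and 10 weeks overlapped. The contrast of its steps was lost without 7-day replicate 1 (adjusted p = 0.0514) and measured -1.13 without 7-day replicates 2 and 3 (adjusted p = 0.0305).

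Of the 7 Ndufaf assembly factors 1 rose in the first week (5.27% of all genes), 4 in the later step (17.0%) and 4 over the whole interval (19.5%), and 0 fell. Ndufaf2 (probe set 10412054), a paralog of Ndufa12 that holds its place during assembly, measured 6.67, 6.74 and 6.99 at 24 hours, 7.28, 7.14 and 7.24 at 7 days, and 7.54, 7.55 and 7.36 at 10 weeks. The ages were separate and the rise of 0.68 ± 0.09 (1.6-fold, adjusted p = 0.000148) was the largest of the group. Its first-week call (0.42, adjusted p = 0.0168) was lost without any 1 of 24-hour replicates 1 and 2 or 7-day replicates 1 and 3 (highest adjusted p 0.0743), and its later one (0.26, adjusted p = 0.0456) without 24-hour replicate 2, any 7-day replicate or 10-week replicates 1 or 2 (highest adjusted p 0.143). Ndufaf1 (probe set 10486284), a factor of the membrane arm, measured 7.43, 7.56 and 7.57 at 24 hours, 7.60, 7.43 and 7.54 at 7 days, and 8.02, 8.00 and 8.00 at 10 weeks. The young ages overlapped, 10 weeks was higher by 0.48 ± 0.06 (adjusted p = 0.000145), and the later step was larger than the first by 0.48 (adjusted p = 0.0113; 0.0596 without 7-day replicate 2). Without 7-day replicates 2 and 3 that contrast of Ndufaf1 was 0.33, and the steps of Ndufaf2 measured 0.47 and 0.21. None of these was called in that setting.

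Ndufaf3 and Ndufaf4, which act together on the Q module, went from 7.95 ± 0.08 to 8.33 ± 0.11 and from 7.96 ± 0.14 to 8.25 ± 0.11 (SD, n = 3). Both rises passed (adjusted p = 0.00101 and 0.0481), that of Ndufaf4 not without any 1 of 24-hour replicates 1 and 2, 7-day replicate 1 or the 10-week replicates (highest adjusted p 0.163). Ndufaf6 measured 5.70, 5.74 and 5.86 at 24 hours, 5.61, 5.42 and 5.73 at 7 days, and 6.02, 6.18 and 5.81 at 10 weeks. Its later step of 0.42 passed (adjusted p = 0.0102). Without 7-day replicates 2 and 3 that step measured 0.395 and was no longer called. The later step of Ndufaf6 was larger than its first by 0.60 (adjusted p = 0.0461). That contrast was lost without any 1 of the 24-hour replicates, 7-day replicates 1 and 2 or 10-week replicates 1 and 2 (highest adjusted p 0.209). Its whole difference of 0.24 did not pass (adjusted p = 0.0999). Ndufaf5 and Ndufaf7, which modify core subunits, differed by 0.08 and 0.04 between 24 hours and 10 weeks and were called in no comparison.

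The 10 other assembly factors measured moved both ways: 4 rose and 3 fell over the whole interval, where 19.5% and 20.6% of all genes did. Tmem126b, a membrane factor, went from 7.94 ± 0.04 to 8.73 ± 0.08 (difference 0.78, adjusted p = 4.24e-06) and Ecsit, its partner with Ndufaf1 and Acad9 in one assembly complex, from 7.89 ± 0.08 to 8.46 ± 0.08 (0.57, 5.02e-05). Acad9 of the same complex fell, from 7.86 ± 0.09 to 7.57 ± 0.15 (-0.29, 0.0136). Tmem70 rose by 0.48 and Tmem186 by 0.24. Foxred1, a late assembly factor, changed by -0.56 (adjusted p = 3.63e-05) and Dmac1, a factor of the distal arm, by -0.24 (0.0022). Timmdc1, Nubpl and Dmac2 were not called in it. ND3, the 1 mitochondrially encoded subunit with a probe set of a single symbol, went from 12.58 ± 0.03 to 12.65 ± 0.05 and 12.80 ± 0.03 (SD, n = 3), and its rise of 0.21 passed (adjusted p = 0.0015).

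Beside the 28 of 34 complex I subunits that rose from 24 hours to 10 weeks, 2 of 4 complex II subunits rose and 0 fell, 4 of 9 of complex III rose and 0 fell, 8 of 13 of complex IV rose and 2 fell, and 6 of 17 of complex V rose and 2 fell. Over all genes 19.5% rose and 20.6% fell. The medians were 0.34 for complex I and 0.13, 0.22, 0.18 and 0.07 for complexes II to V. The spread was widest in complex IV, where subunits exist in heart and other forms. There Cox7a1 and Cox8b, heart and muscle forms, rose by 1.50 and 1.24, and Cox6a1 and Cox8a, forms of other tissues, changed by -1.68 and -0.81. In complex I the differences ran from -0.13 to 1.10. Of 9 general mitochondrial proteins, such as porins and chaperones, 2 rose and 1 fell (22.22% and 11.11%, near those shares of all genes), with a median of 0.04. Cox7a2l, a supercomplex factor, measured 9.87 ± 0.08 and 9.94 ± 0.14 and was not called. Differences between complexes were not tested.

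**Figure D4:**
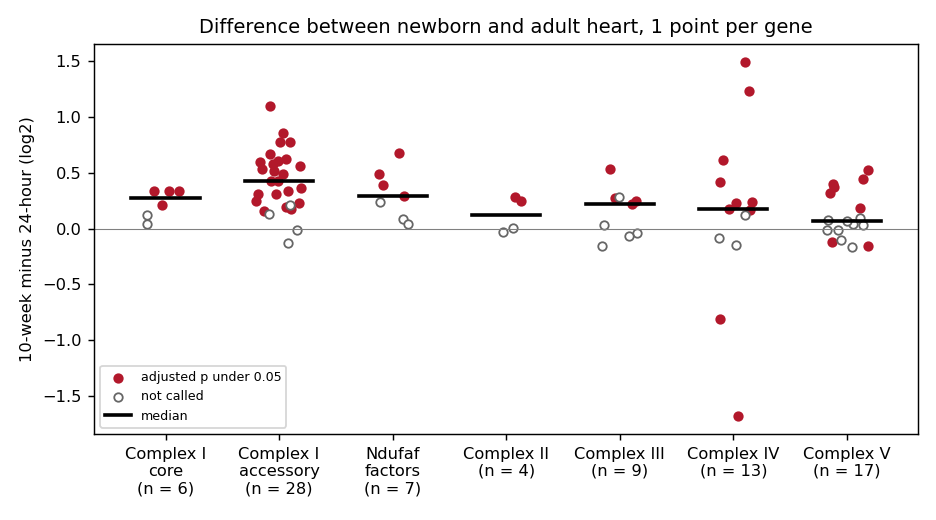
Log2 difference between 10 weeks and 24 hours for each subunit gene of complexes I (core and accessory apart) to V and for the Ndufaf genes, with the median of each group as a line. The complex I accessory subunits have the highest median (0.43), and genes of complex IV reach from -1.68 to 1.50.

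Within an age the subunits moved together from array to array. At 24 hours replicate 3 was the highest array for 31 of the 34 subunits, at 7 days replicate 2 was the lowest for 28, and at 10 weeks replicate 1 was the highest and replicate 3 the lowest for 24 each. Over all tested genes any 1 array was the highest or the lowest of its age for 23.3% to 36.1%. The median deviation of the 34 subunits from their age mean was -0.07, -0.04 and 0.09 at 24 hours, 0.03, -0.07 and 0.05 at 7 days, and 0.06, 0.01 and -0.10 at 10 weeks, while that of all genes stayed within 0.01 of 0. The 34 subunits are therefore not 34 separate observations of an age. Their median signal was 9.96, 10.08 and 10.22 at 24 hours, 10.24, 10.12 and 10.24 at 7 days, and 10.58, 10.48 and 10.41 at 10 weeks, so that every 10-week array lay above every younger one, and 24 hours and 7 days overlapped.

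**Figure D5:**
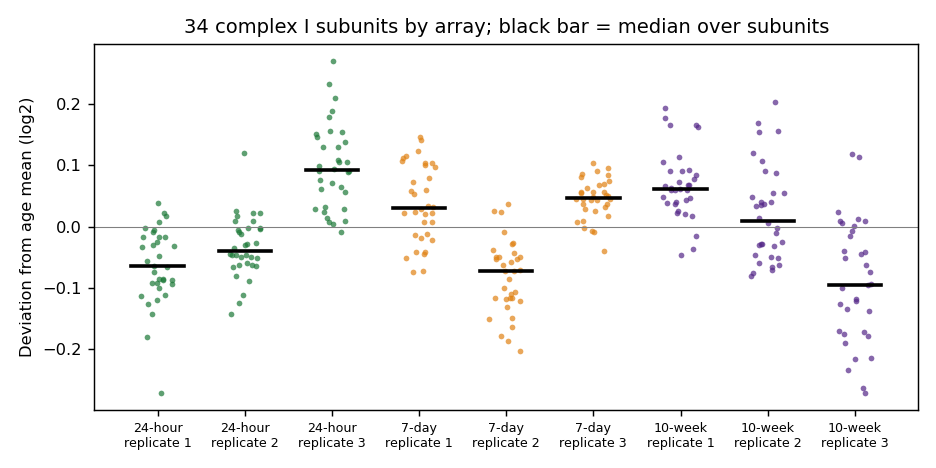
Deviation of each of the 34 subunits from its mean at the same age, on each of the 9 arrays (log2). The points of 24-hour replicate 3 lie mostly above 0 (median 0.09) and those of 7-day replicate 2 and 10-week replicate 3 mostly below it (medians -0.07 and -0.10).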

How the data were processed

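Total RNA of heart muscle was read on 9 Affymetrix Mouse Gene 1.0 ST arrays, 3 per age. The authors deposited 1 log2 value per feature and array, and the submitters' processing notes name MAS5 5.0; how arrays were normalized is not given in the sources used here. Signals span 1.85 to 13.58, more than a natural log of a scanner reading can reach (11.09), and array medians differ by at most 0.05, so the values were used as deposited. Of 35556 features 21789 carry 1 gene symbol, 1621 several, and 12146 are not listed in the platform table; the highest-mean probe set was kept for 999 genes with more than 1, which left 19938 genes.

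limma 3.58.1 (R 4.3.3) was run on all genes and arrays at once, with a mean for each age, eBayes with an intensity trend and 6 residual degrees of freedom. P-values were adjusted over all 19938 genes of a comparison (Benjamini-Hochberg), with calls at an adjusted p under 0.05. The comparisons were 7-day against 24-hour, 10-week against 7-day, 10-week against 24-hour, and the later step minus the first. The younger and older comparisons share arrays and are not independent of each other. The genes, lists, roles and motifs were chosen with earlier results of these data known. Every Nduf and Ndufaf gene could be named, every tested regulator and other assembly factor, and up to 4 genes of each other list by size of difference. Promoter windows came from RefSeq on GRCm38.p6; the platform table names no build, so no probe coordinates are given. On simulated data for 19938 genes, 72%, 69% and 78% of changes of 0.5 were recovered in the first 3 comparisons and 98%, 97% and 97% of changes of 1. Of the calls 4.49%, 4.05% and 6.42% were false. There 100 genes per size and comparison were changed, all from those above the median signal, with noise independent between genes. In the data far more genes were called and the subunits moved together within arrays, so these rates need not hold for them. The precision is limited by the 3 arrays of an age. Tables were made with Python 3.11.15.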

Additional observations from a re-analysis of the deposited data

How the results depend on the processing

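The 36 Nduf genes kept 0 reversed calls over 19 other settings. In the first week 9 rose: 4 did with each array centred on its median, 4 without 7-day replicates 2 and 3, 3 at an adjusted p under 0.01, 6 without the intensity trend, 7 without Ndufa4 and Ndufa4l2 (an alternative added after the data were seen), and 3 to 10 with 1 array left out. After quantile normalization 9 rose and 0 fell. The count that fell was 1 with each array centred on its median and 1 among bright genes alone, both times Ndufs1. In the later step 22 rose: 7 did without 7-day replicates 2 and 3, 13 at an adjusted p under 0.01, and 13 to 25 with 1 array left out. Over the whole interval 30 rose and 24 to 31 did with 1 array left out; 1, Ndufc2, fell after quantile normalization, 1 among bright genes alone, and 0 to 1 with 1 array left out. Of the Ndufaf genes 1 rose in the first week, 0 without 7-day replicates 2 and 3, 0 at an adjusted p under 0.01 and 0 to 1 with 1 array left out; 4 rose in the later step, 1 without 7-day replicates 2 and 3, 2 at an adjusted p under 0.01 and 3 to 4 with 1 array left out. A setting that leaves 1 array at 7 days takes its spread from the other ages. The cause of these shifts was not tested.

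The labels do not say whether same-numbered arrays of different ages belong together, and the main test did not pair them. The deviations of same-numbered arrays correlated from -0.17 to 0.13 and those of other pairs from -0.22 to 0.25. The highest value was that of 24-hour replicate 1 with 7-day replicate 2 (r = 0.25). With 3 arrays per age these values cannot show whether same-numbered arrays shared a batch. With the number as a replicate block 7, 22 and 30 Nduf genes and 1, 3 and 4 Ndufaf genes rose in the 3 comparisons in order.

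Of 3225 values of single genes under other settings, 2941 kept their side of the threshold with no called value changing sign (in 80 of these the sign changed with neither value called), 245 no longer passed and 39 newly passed. No detection calls came with the values, so how far a dim probe set stands above background is unknown.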

Other observations

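Regulators of mitochondrial genes moved both ways between 24 hours and 10 weeks. Of 14 measured, 6 rose and 5 fell (42.86% and 35.71%, against 19.5% and 20.6% of all genes), with a median of 0.06. Tfb2m, a transcription factor of mitochondrial DNA, went from 8.15 ± 0.05 to 8.06 ± 0.09 and 9.18 ± 0.09 (SD, n = 3; difference 1.02, limma adjusted p = 7.12e-07). Ppara, a receptor that drives fatty acid oxidation genes, rose by 0.93 (adjusted p = 5.65e-06), Esrrb by 1.11 (1.43e-05), Esrra by 0.46 (0.0117) and Tfam, which packages mitochondrial DNA, by 0.26 (0.0311). Esrrg, another estrogen-related receptor, measured 7.46, 7.54 and 7.62 at 24 hours, 7.24, 6.97 and 6.97 at 7 days, and 7.76, 7.76 and 7.81 at 10 weeks. Its 7-day arrays lay below all the others, with a first step of -0.48 and a later one of 0.72, and the steps differed by 1.20 (adjusted p = 0.000186).

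Ppargc1a, a coactivator of mitochondrial biogenesis, measured 10.46, 10.59 and 10.45 at 24 hours, 10.22, 10.21 and 10.24 at 7 days, and 9.97, 10.00 and 10.13 at 10 weeks. It was lower at each age than at the one before, and the whole difference was -0.47 ± 0.06 (adjusted p = 7.8e-05). Its relative Ppargc1b changed by -0.60 (adjusted p = 0.000234). The subunits of nuclear respiratory factor 2, Gabpb1 and Gabpa, changed by -0.71 and -0.16 (adjusted p = 2.18e-05 and 0.0282) and Yy1 by -0.19 (0.0497). Nrf1, whose letters were searched in the promoters, measured 5.91 ± 0.03 and 5.73 ± 0.16 and was not called (difference -0.18, adjusted p = 0.102), nor were Pprc1 and Polrmt.

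The 5 subunit genes with a second probe set of their own gave near values on it. The 10-week minus 24-hour differences on the probe set used and on the second were 0.21 and 0.16 for Ndufa11, 0.34 and 0.34 for Ndufab1, 0.25 and 0.31 for Ndufb11, 0.31 and 0.32 for Ndufc1, and 0.34 and 0.36 for Ndufs3. A probe set of these small genes can share sequence with processed copies elsewhere in the genome, and which copy each one reads was not tested.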
